A study of Mus musculus with 6 samples.

Results

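Complement is a cascade of plasma proteins and cell receptors, and 9 of its genes are described here in mouse gingiva, the mucosa around the teeth. They are the C1q subunits C1qa, C1qb and C1qc, the components C3, C4b and Cfb, the receptors C5ar1 and C3ar1, and the regulator Cd55. They were picked as a named list of complement genes and matched by gene symbol, and all 9 were found among the 48709 genes of the count table. Total RNA of 12-week-old C57BL/6 mice was sequenced in 6 libraries, 3 labelled Plg WT (wild type) and 3 labelled Plg KO. Plg KO mice lack plasminogen, the precursor of the fibrin-dissolving protease plasmin, and the study's design text calls the wild-type mice littermates. Nothing in the labels ties each library to its own animal, so the p-values cover only the spread from library to library, part of which may be technical.

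The classical pathway of complement starts when C1q, a protein built from A, B and C chains, binds antibody or other surfaces, and its partner proteases cut C4 and C2. The lectin pathway starts with sugar-binding collectins and ficolins and their MASP proteases, and the alternative pathway runs on C3, factor B (Cfb) and factor D (Cfd). All of them cut C3. The fragments C3a and C5a signal through C3ar1 and C5ar1 on myeloid cells, and CD55 breaks up the enzymes that cut C3 and C5. Most circulating complement is made in the liver, while C1q is made mainly by macrophages and dendritic cells. In gum tissue complement is best known for its part in periodontal inflammation.

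Libraries held 26183389 to 36429150 gene counts. Oral keratinocyte markers such as Krt14 and Krt4 were at 43138 to 52542 CPM in sum (read counts scaled to a common library size by TMM, a correction for library composition), and the liver marker Alb had no count in any library. Plg itself, made mainly in the liver, totalled 2 counts in each group, too few to check the labels. By Xist and Ddx3y counts, Plg WT 3 and Plg KO 1 came from males and the other 4 libraries from females, so each group held at least 2 animals. The sum of 10 neutrophil markers ran from 47.8 to 82.1 CPM in Plg WT and from 191.3 to 556.5 CPM in Plg KO. Most of it in Plg KO was S100a8 (49.8 to 229.3 CPM) and S100a9 (72.2 to 237.1 CPM). Of the 9 tested, edgeR called 1, Mmp9, and DESeq2 6, all higher. Over all genes, edgeR called 34 of 17757 higher and DESeq2 260 of 19170.

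None of the 9 genes passed the test between Plg KO and Plg WT. The most separated were C5ar1, the receptor for C5a, with a 1.93-fold higher level in Plg KO, and C4b, with a level 1.54-fold lower. The C1q genes and C3, the central component, had folds of 1.03 or less in either direction.

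Of the 9 genes, 8 had enough counts to be tested and Cfb did not. edgeR's quasi-likelihood test called 0 of these 8 at an adjusted p under 0.05, where it called 0.237% of all 17757 tested genes (34 higher, 0.191%, and 8 lower, 0.0451%). DESeq2 and limma-voom also called 0 of them, against 2.04% and 0.231% of all the genes each tested. At an unadjusted p under 0.05, edgeR counted 1 higher, C5ar1, against 4.97% of all tested genes, and 1 lower, C4b, against 4.27%, or 9.25% in either direction. The same pair had groups that did not overlap, which 14.7% of all tested genes showed. The median log2 difference of the 8 genes was 0.03, beside -0.0043 for all tested genes.

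**Figure D1:**
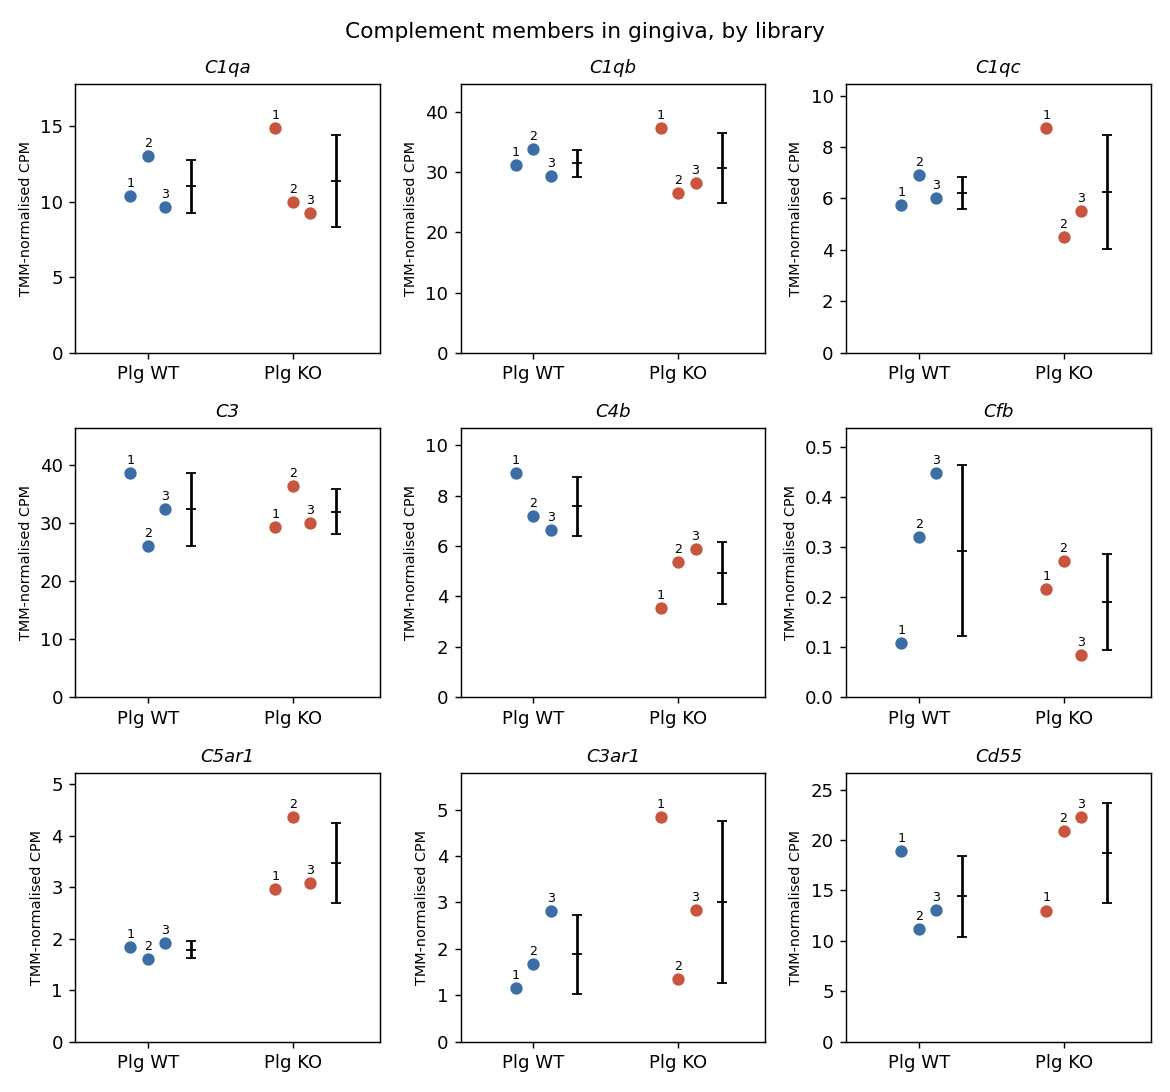
TMM-normalised CPM of each gene (vertical axis, from 0) in the 3 Plg WT and 3 Plg KO libraries, numbered by replicate, with the group mean and SD as black bars. The groups separate for C5ar1 and C4b and overlap for the other 7 genes.

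Levels of different genes were compared per kilobase of exon (RPKM, CPM divided by exon length in kilobases, as mean ± SD over the 6 libraries). C1qb had the highest level at 28.6 ± 3.63 RPKM, followed by C1qa at 10.8 ± 2.14 and C3 at 6.26 ± 0.911. Cd55 at 3.41 ± 0.966 and C1qc at 3.23 ± 0.749 did not differ beyond their spread. C4b at 1.10 ± 0.317 and C5ar1 at 1.02 ± 0.407 had like means over all libraries, but their order turned between the groups. In Plg WT, C4b was at 1.16 to 1.56 RPKM and C5ar1 at 0.625 to 0.748. In Plg KO, C4b was at 0.621 to 1.03 and C5ar1 at 1.16 to 1.69. That turn was not tested, and neither gene passed the test between the groups. C4b also shares windows with C4a, as given below, so its level relative to C5ar1 is not settled. C3ar1 at 0.568 ± 0.319 had a lower mean than C4b and C5ar1. Cfb was lowest at 0.0856 ± 0.0483 RPKM. The exon length is the union over all annotated transcripts, which lowers the level of a gene with long minor transcripts. For C1qc that union is 1931 bases, against 1203 in its longest coding transcript.

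How well a count stands for a gene depends on how much of its transcript other genes share. Reads were 37 bases long, so each gene's longest coding transcript was split into all windows of 37 bases, which were looked up in the transcripts of every other gene. C1qa, C1qb, C1qc, C3 and C5ar1 shared 0 windows, and C3ar1 shared 0.281%. Cd55 shared 19.1%, mostly with its neighbour Cd55b, which had no count in any library. C4b shared 44.1% with C4a, its neighbour on chromosome 17. Cfb shared 81.9% of its windows with Gm20547, an annotated transcript that runs from the C2 gene through Cfb. The sources used here do not say how the authors' counting treated such shared reads.

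**Figure D2:**
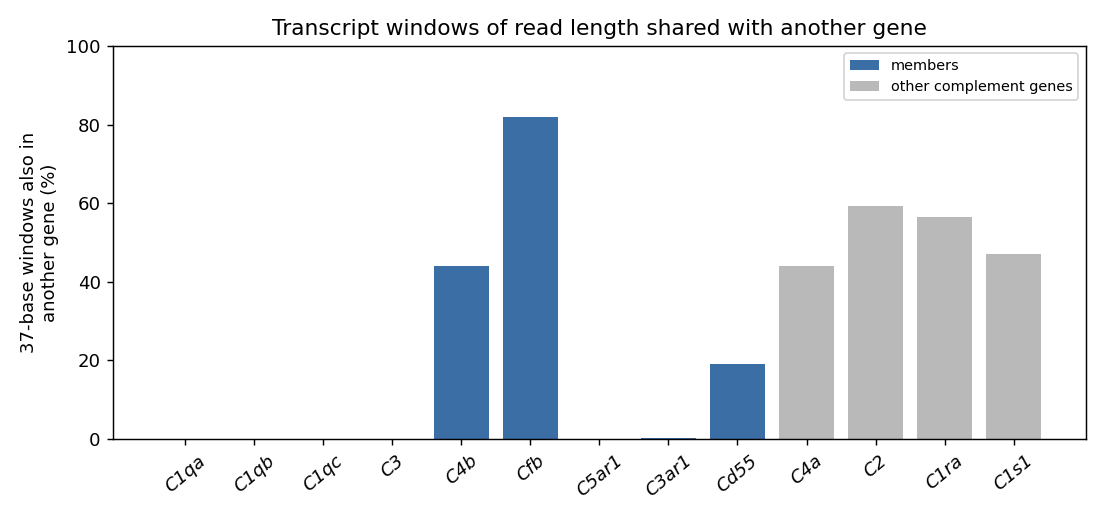
Share of 37-base transcript windows (vertical axis, percent) that also occur in a transcript of another gene, for the 9 genes (blue) and 4 other complement genes (grey). Cfb at 81.9% and C4b at 44.1% stand out among the 9, while C1qa, C1qb, C1qc, C3 and C5ar1 are at 0.

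The C1q genes lie side by side on chromosome 4 (GRCm38), with C1qb at 136880129 to 136886187, C1qc at 136889804 to 136893065 and C1qa at 136895917 to 136898803, all on the minus strand. For these neighbours, the bases before the start of C1qb and C1qc are shown. They come from RefSeq (GRCm38.p6), where 6 of the 9 genes were matched and C1qa, C4b and Cfb were not. Each is the 250 bases before the annotated start on the minus strand, at chr4:136886201-136886450 for C1qb and chr4:136892915-136893164 for C1qc. RefSeq's starts differ from the gene ends given above, which are GENCODE's, so that 151 of the bases shown for C1qc lie inside the GENCODE gene. The same holds for 202 bases of the C5ar1 window and 4 of the C3ar1 window. Capitals mark GAGGAA or its reverse complement TTCCTC, a core sequence bound by PU.1, the myeloid transcription factor.
C1qb: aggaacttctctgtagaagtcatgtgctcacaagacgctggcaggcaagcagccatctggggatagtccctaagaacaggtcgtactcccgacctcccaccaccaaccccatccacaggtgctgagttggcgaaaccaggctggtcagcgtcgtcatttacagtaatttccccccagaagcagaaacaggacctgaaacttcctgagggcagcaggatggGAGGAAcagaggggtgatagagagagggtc
C1qc: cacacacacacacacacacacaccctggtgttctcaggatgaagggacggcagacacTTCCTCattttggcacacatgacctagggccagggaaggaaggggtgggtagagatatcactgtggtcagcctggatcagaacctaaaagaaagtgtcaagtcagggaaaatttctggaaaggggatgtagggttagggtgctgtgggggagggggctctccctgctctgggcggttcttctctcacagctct

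Searched on both strands, C1qb and C1qc had 1 match each, starting 30 and 193 bases before the start. The 250 bases before C3, C5ar1, C3ar1 and Cd55 had 0. Of all 32851 such promoters 23.3% hold a match, so it is a common sequence. The STAT sequence TTCNNNGAA was in none of the 6 (7.02% of all promoters). The AP-1 sequence TGANTCA was in that of C3ar1, 22 bases before its start (6.75% of all promoters). No match overlapped another.

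C1qb had 31.3, 33.8 and 29.3 CPM in Plg WT 1, 2 and 3, against 37.3, 26.5 and 28.3 CPM in Plg KO 1, 2 and 3. C1qa had 10.4, 13.0 and 9.67 CPM in Plg WT and 14.8, 9.98 and 9.27 CPM in Plg KO. C1qc had 5.73, 6.93 and 6.02 CPM in Plg WT and 8.72, 4.51 and 5.52 CPM in Plg KO. For all 3 genes Plg KO 1 was the highest library and Plg WT 2 the next, and the groups overlapped.

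The log2 differences between Plg KO and Plg WT were -0.03 ± 0.15 (SE) for C1qb, 0.05 ± 0.21 for C1qa and 0.01 ± 0.25 for C1qc, and edgeR's test gave them adjusted p of 0.971, 0.974 and 0.997. The 95% interval of the fold was 0.770 to 1.24 for C1qb, 0.730 to 1.46 for C1qa and 0.666 to 1.52 for C1qc, which leaves out a 2-fold change either way. The sign of these small differences turned under other settings, as given in the closing section. The largest such value was -0.31 for C1qc without Plg KO 1, in which all 3 genes were highest.

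Within C1q, the subunits kept nearly fixed shares of their summed level per kilobase. C1qb made up 67.8 ± 1.61% of it in Plg WT and 66.9 ± 2.13% in Plg KO (SD, n = 3 each). C1qa made up 24.7 ± 1.56% and 25.6 ± 1.78%, and C1qc 7.55 ± 0.402% and 7.50 ± 1.04%. The ranges of the groups overlapped for every subunit. By raw counts, with no length correction, C1qc made up 12.8% and 12.7%.

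The sum of the C1q transcripts was 45.0 to 53.8 CPM in Plg WT and 41.0 to 60.9 CPM in Plg KO. Macrophage and monocyte markers, which mark the main source of C1q, summed to 46.8 to 58.4 CPM in Plg WT and 57.1 to 70.9 CPM in Plg KO. The higher Plg KO sums rest on Cd14. Without it the sums were 40.8 to 48.8 CPM in Plg WT and 37.6 to 43.3 CPM in Plg KO. Plg KO 1, the library highest in C1q, was at 43.1 CPM. Adgre1 had the order of the C1q genes, highest in Plg KO 1 at 5.29 CPM and next in Plg WT 2 at 3.999 CPM. Ccr2 was also highest in Plg KO 1, at 4.32 CPM. The other markers were highest in other libraries. Lyve1 stayed in the sums without Cd14. It was at 3.29, 3.50 and 3.98 CPM in Plg KO 1, 2 and 3, against 6.39 to 8.14 CPM for Plg WT. How low the Plg KO libraries lay in those sums, Plg KO 1 included, therefore depended in part on Lyve1. Sums that leave out Lyve1 as well as Cd14 were not taken. The part of macrophage RNA in the C1q values was not tested. Of 12 such markers 10 were tested and the median log2 difference was -0.10. edgeR and limma-voom called 0 of them. DESeq2 called 1 higher, Cd14, and 1 lower, Lyve1, against 2.04% of all the genes it tested. The list was mixed, with 5 log2 differences above 0 and 5 below. Cd14, a coreceptor for bacterial lipopolysaccharide that neutrophils also carry, had a log2 difference of 1.42, and Lyve1 and Cd163 had -1.002 and -0.82. Csf1r, Cd68, Adgre1 and Mrc1 lay nearer 0, at 0.0018, 0.15, 0.29 and -0.29. In bulk tissue, fewer cells of a type and less RNA per cell cannot be told apart.

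**Figure D3:**
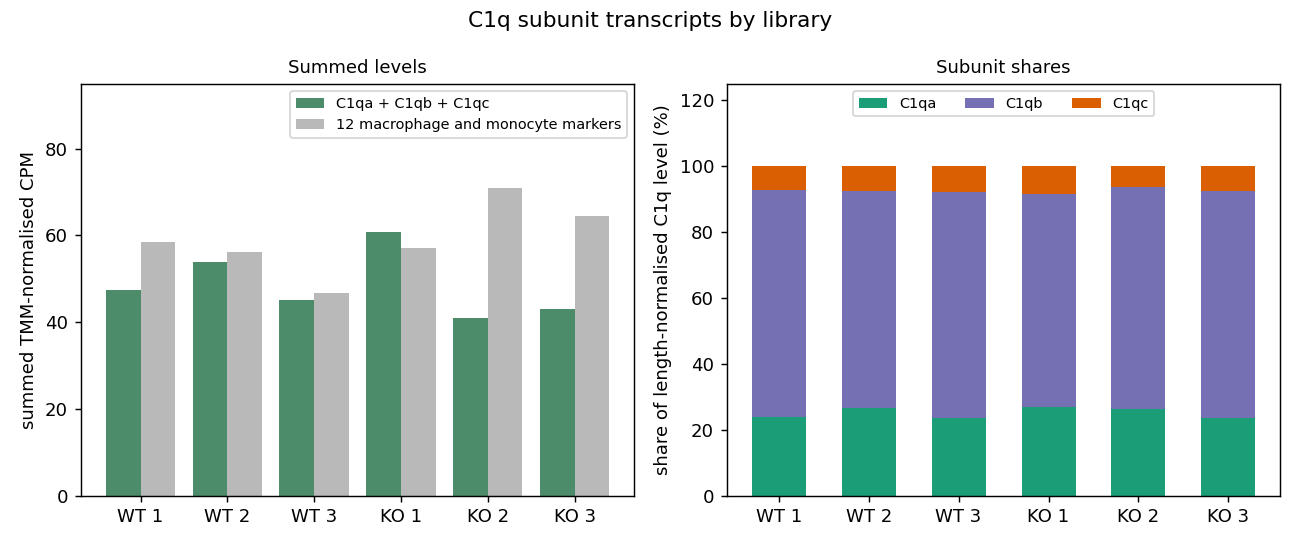
Left, summed CPM of C1qa, C1qb and C1qc (green) and of 12 macrophage and monocyte markers, Cd14 included, (grey) in each library, from 0. Right, the share of each subunit in the summed level per kilobase (percent), where C1qb holds 64.6% to 68.9% in every library.

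C3 (chromosome 17, 57203970 to 57228136), the protein that all pathways cut, had 38.7, 26.1 and 32.5 CPM in Plg WT 1, 2 and 3, against 29.4, 36.4 and 30.1 CPM in Plg KO 1, 2 and 3. The Plg KO libraries all lay inside the range of Plg WT. The group means were 32.5 ± 6.30 and 32.0 ± 3.87 CPM, and the fold had a 95% interval of 0.757 to 1.28. The adjusted p was 0.987 in edgeR's test, and the small negative difference turned positive when Plg WT 1, Plg KO 1 or Plg KO 3 was left out.

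C4b (chromosome 17, 34728380 to 34743882) encodes C4, which the classical and lectin pathways cut to build the enzyme that cuts C3. It had 8.90, 7.18 and 6.63 CPM in Plg WT 1, 2 and 3, against 3.54, 5.36 and 5.88 CPM in Plg KO 1, 2 and 3. Every Plg KO library was below every Plg WT library, but Plg KO 3 and Plg WT 3 lay close together. The log2 difference was -0.62 ± 0.23 (SE) and the Benjamini-Hochberg adjusted p was 0.444 with edgeR's quasi-likelihood test (0.0285 unadjusted). It was -0.43 without Plg KO 1, the lowest library.

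Because C4b and C4a are near copies, a stretch of both is shown to make plain what a read has to tell apart. It is the run of 60 bases in the C4b coding sequence with the most differences from C4a. It covers positions 2705 to 2764 of the coding sequence of C4b and 2755 to 2814 of the C4a transcript (GENCODE release M21), and capitals mark the 13 bases that differ.
C4b: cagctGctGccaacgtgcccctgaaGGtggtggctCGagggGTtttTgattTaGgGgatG
C4a: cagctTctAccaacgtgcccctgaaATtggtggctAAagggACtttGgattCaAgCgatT

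Over the 5207 aligned bases the sequences were 96.1% identical. C4a, known for sex-limited expression in some mouse strains, had totals of 31 (Plg WT) and 22 (Plg KO) counts, too few to be tested. The male libraries, Plg WT 3 and Plg KO 1, held 3 and 7 of these counts, and the others 1 to 18 each. Summing C4a into C4b left the log2 difference at -0.62 (adjusted p = 0.438 in edgeR's test).

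Of 8 fibroblast markers tested, edgeR, DESeq2 and limma-voom called 0, 7 had a negative log2 difference and the median was -0.45. Their sum was 1883 to 3008 CPM in Plg WT and 1225 to 2133 CPM in Plg KO, with groups that overlapped. By gene, edgeR counted 5 of the 8 lower at an unadjusted p under 0.05, against 4.27% of all tested genes. For 3 (Dcn, Pdgfra and Pi16) every Plg KO library was below Plg WT, against 7.18% of all tested genes. The part of these markers in the C4b values was not tested.

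Cfb (chromosome 17, 34856374 to 34862518), the protease precursor of the alternative pathway, was counted 4, 9 and 14 times in Plg WT 1, 2 and 3, and 8, 7 and 3 times in the Plg KO libraries in that order. At 27 and 18 counts per group it was below the filter. The ratio of Plg KO to Plg WT was 0.649 with an exact 95% interval of 0.337 to 1.22, which covers counting error only. Of its 2825 exon bases 79.5% also lie in exons of Gm20547, which had no count in any library. How much of the Cfb signal the counting kept was not tested.

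The receptors both had point estimates above 0. C5ar1 (chromosome 7, 16246743 to 16259540), through which C5a draws and activates neutrophils and macrophages, had 1.83, 1.61 and 1.92 CPM in Plg WT 1, 2 and 3. It had 2.97, 4.35 and 3.08 CPM in Plg KO 1, 2 and 3. The lowest Plg KO library was above the highest Plg WT library. Each Plg WT value rests on 45 to 67 counts and each Plg KO value on 110 to 112.

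The log2 difference of C5ar1 was 0.95 ± 0.23 (SE), with a 95% interval of the fold from 1.32 to 2.82. The Benjamini-Hochberg adjusted p was 0.223 with edgeR's quasi-likelihood test (0.00433 unadjusted), so it did not pass. DESeq2 gave an adjusted p of 0.0580, the lowest of the alternatives, which ran to 0.666.

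Neutrophils carry C5ar1. Of the 10 neutrophil markers 9 were tested, all 9 had a positive log2 difference and the median was 2.63. Plg KO 2 had the highest sum, 556.5 CPM, and also the highest C5ar1. Most of that sum was S100a8 and S100a9, at 229.3 and 237.1 CPM. Csf3r and Cxcr2 were also highest in Plg KO 2, at 8.04 and 5.55 CPM, but Mmp9 was highest in Plg KO 1, at 65.9 CPM. The defining marker Ly6g had no count in Plg WT 1, Plg WT 3 and Plg KO 1 and 1.79 CPM in Plg KO 2. The part of neutrophil RNA in the C5ar1 values was not tested.

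C5ar2, the related receptor that binds C5a and lies next to C5ar1 on chromosome 7, did not show this separation. It had 2.95, 5.39 and 4.16 CPM in Plg WT and 4.32, 4.27 and 4.09 CPM in Plg KO, a log2 difference of 0.02 ± 0.24 that was -0.18 without Plg WT 1 and -0.0017 with upper-quartile scaling. Per kilobase, C5ar1 was 0.413 to 0.860 times C5ar2 in Plg WT and 0.953 to 1.41 times in Plg KO, with no overlap. As C5ar1 itself separated and C5ar2 did not, this adds little to the C5ar1 values. A test of that difference between the receptors was not run. Of the other ratios taken, C3 over C4b also had no overlap (4.03 to 5.44 in Plg WT, 5.66 to 9.21 in Plg KO). C5ar1 over C3ar1 overlapped (1.14 to 2.67 in Plg WT, 1.03 to 5.36 in Plg KO).

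C3ar1 (chromosome 6, 122847138 to 122856161), the receptor for C3a, had 1.15, 1.68 and 2.82 CPM in Plg WT 1, 2 and 3, against 4.83, 1.36 and 2.83 CPM in Plg KO 1, 2 and 3. The groups overlapped, and Plg KO 1 stood above the other 5 libraries. The log2 difference was 0.69 ± 0.50 (SE; adjusted p = 0.749 in edgeR's test) and 0.17 without Plg KO 1. Itgax, an integrin chain of complement receptor 4 that dendritic cells carry, had the same high library, with 6.72 CPM in Plg KO 1 and 1.04 to 2.64 CPM in the others. Plg KO 1 was also the highest library for the C1q genes.

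Cd55 (chromosome 1, 130439027 to 130462744), which protects host cells from complement, had 18.9, 11.2 and 13.1 CPM in Plg WT 1, 2 and 3, against 13.0, 20.9 and 22.2 CPM in Plg KO 1, 2 and 3. The groups overlapped, with Plg WT 1 close to the high Plg KO libraries. The log2 difference was 0.37 ± 0.26 (SE; adjusted p = 0.735 in edgeR's test), and 0.62 without Plg WT 1. Salivary gland markers were high in the same libraries, with sums of 602.2, 474.1 and 611.0 CPM in Plg WT 1, Plg KO 2 and Plg KO 3. Plg WT 2 and 3 were at 134.3 and 135.5 CPM, and Plg KO 1 was at 413.8 CPM. Of 8 such markers 5 were tested, edgeR, DESeq2 and limma-voom called 0, and Prol1 had no count in any library. The part of gland tissue in the Cd55 values was not tested.

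**Figure D4:**
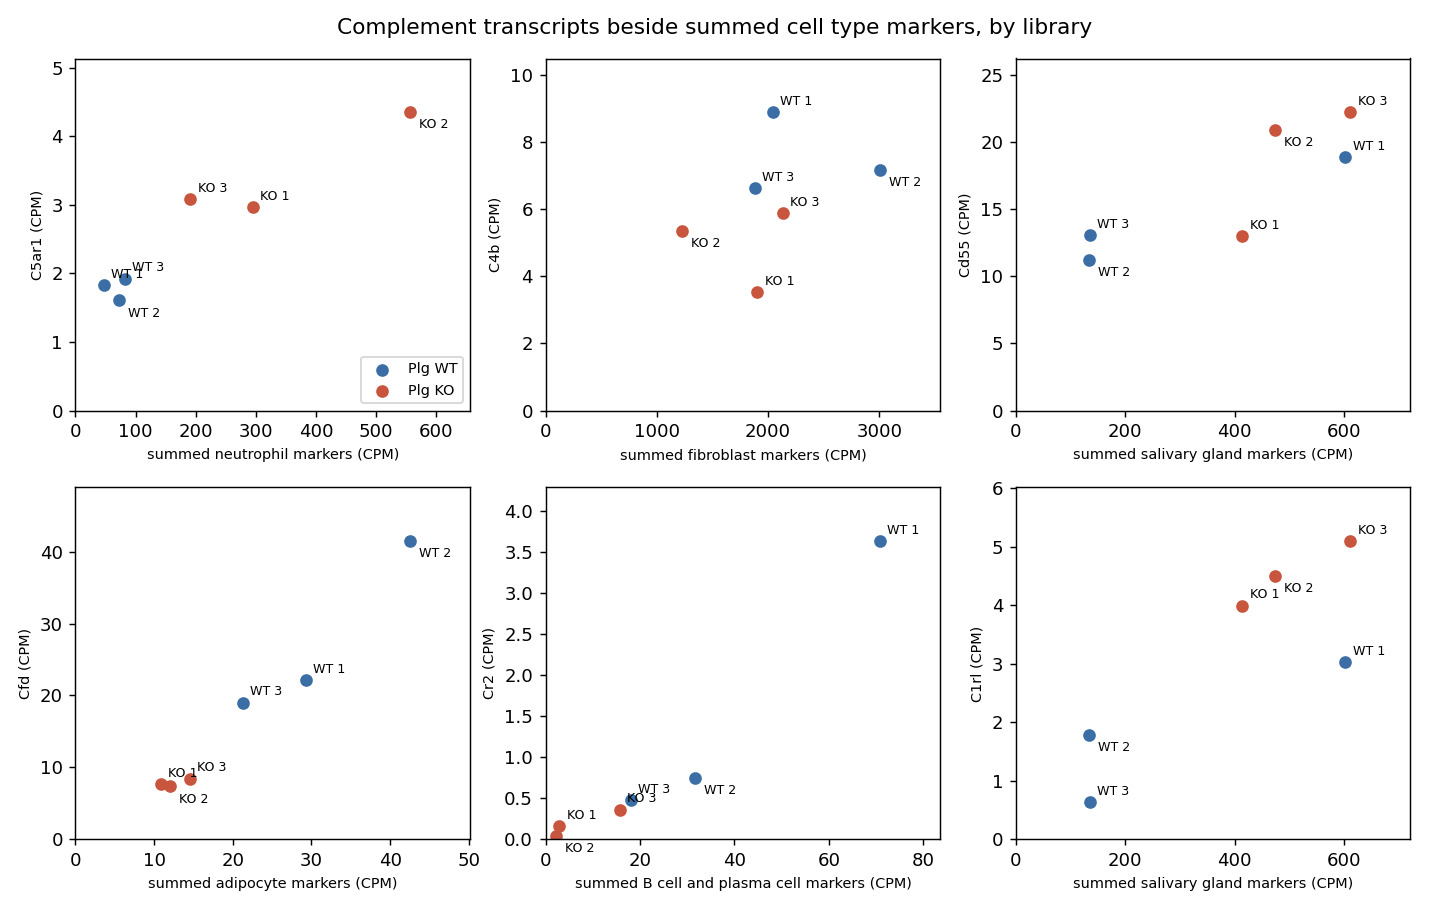
CPM of a complement gene (vertical axis) against the summed CPM of a marker list (horizontal axis) in each library, Plg WT in blue and Plg KO in red, both axes from 0. C5ar1 and the neutrophil sum are both highest in Plg KO 2, Cfd and the adipocyte sum in Plg WT 2, and Cr2 and the B cell sum in Plg WT 1. Most of the neutrophil sum in Plg KO 2 is S100a8 and S100a9.

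The other genes of the pathway were read from a list of 50, of which 32 had enough counts to be tested. edgeR called 0 of them higher (0.191% of all tested genes) and 0 lower (0.0451%), and limma-voom 0. DESeq2 called 3, all lower, against 132 of the 19170 genes it tested. At an unadjusted p under 0.05 edgeR counted 1 higher and 6 lower of the 32, against 4.97% and 4.27% of all tested genes. Groups did not overlap for 2 higher and 7 lower genes, against 7.51% and 7.18% of all tested genes. The median log2 difference was -0.04, beside -0.0043 for all tested genes.

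Of 7 classical pathway genes 4 were tested. C1s1, the protease that cuts C4, had 14.1 to 18.4 CPM in all libraries and a log2 difference of 0.02 ± 0.13, or -0.09 without Plg KO 1. C2, which shares 59.2% of its windows with Gm20547, had -0.30 ± 0.40, or 0.03 without Plg WT 2. C1rl, a protease related to C1r, had 3.03, 1.79 and 0.641 CPM in Plg WT and 3.995, 4.51 and 5.10 CPM in Plg KO. The groups of C1rl did not overlap (1.31 ± 0.48 on the log2 scale, with an adjusted p of 0.438 by edgeR). It was 0.90 without Plg WT 3 and 1.91 without Plg WT 1. The libraries with the lowest salivary gland sum, Plg WT 2 and 3, were lowest in C1rl. The part of gland tissue was not tested.

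Of 9 lectin pathway genes 5 were tested, none passed edgeR's test, and 3 lay below Plg WT in every Plg KO library, which 7.18% of all tested genes did. Colec12, a scavenger receptor with a collectin domain, had 7.97, 7.96 and 7.24 CPM in Plg WT and 5.10, 3.81 and 5.01 CPM in Plg KO. Its log2 difference was -0.73 ± 0.17 (adjusted p = 0.195 in edgeR's test, 0.0271 in DESeq2). Masp1, a protease of the lectin pathway, had -0.85 ± 0.28, and the soluble collectin Colec11 had -1.85 ± 0.55 on 115 (Plg WT) and 31 (Plg KO) counts. Mbl1 and Mbl2, the mannose-binding lectins made in the liver, had no count in any library. The part of fibroblasts, whose markers are given beside C4b, in these values was not tested.

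In the alternative pathway, Cfd, the protease that cuts factor B and is known from fat cells as adipsin, had the lowest p of the pathway. It had 22.2, 41.5 and 19.0 CPM in Plg WT 1, 2 and 3, against 7.69, 7.38 and 8.46 CPM in Plg KO 1, 2 and 3, a log2 difference of -1.81 ± 0.29. Its adjusted p was 0.0804 with edgeR, 2.325e-07 with DESeq2 and 0.140 with limma-voom, and with edgeR it was 0.0451 without Plg WT 1, 0.00557 with no filter and 0.380 with the replicate number as a block. It was -1.39 on the log2 scale without Plg WT 2, the highest library. The sum of adipocyte markers was 21.3 to 42.5 CPM in Plg WT and 10.9 to 14.5 CPM in Plg KO, and all 5 tested had a negative log2 difference. edgeR called Cidec lower, DESeq2 Cidec, Adipoq and Retn, and limma-voom 0. Over all tested genes, edgeR called 0.0451% lower and DESeq2 132 of 19170. The part of fat tissue in the Cfd values was not tested. Cfp, or properdin, which steadies the enzyme of this pathway, had 7.18 to 8.18 CPM in Plg WT and 8.46 to 10.8 CPM in Plg KO, or 0.32 ± 0.14 on the log2 scale (edgeR's adjusted p = 0.562).

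Of the 7 genes for terminal components, which form the pore in target membranes, 3 were tested. C8g had 3.81 to 4.80 CPM in all libraries and a log2 difference of -0.10 ± 0.17. C8b had 0 to 23 and C7 0 to 20 counts per library, with log2 differences of 1.10 ± 0.96 and -0.10 ± 0.94. C8b was 3.83 without Plg WT 1 and 0.57 without Plg WT 2. The sign for C7 turned without Plg WT 3 (0.72) or Plg KO 2 (0.41). Hc, the gene for C5, had 0 to 8 counts per library. In these libraries 3 counts equal 0.0824 to 0.115 CPM.

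Among the other receptors, Cr2, the receptor of B cells for C3 fragments, had 3.63, 0.750 and 0.481 CPM in Plg WT 1, 2 and 3, against 0.162, 0.0388 and 0.364 CPM in Plg KO 1, 2 and 3. The log2 difference of -3.03 ± 0.95 did not pass edgeR's test (adjusted p = 0.357) but did in DESeq2 (adjusted p = 0.0280), and it was -1.62 without Plg WT 1. B cell and plasma cell markers summed to 70.9 CPM in Plg WT 1, to 31.6 in Plg WT 2, to 18.1 in Plg WT 3 and to between 2.10 and 15.7 in the Plg KO libraries. All 6 of these markers had a negative log2 difference. edgeR and limma-voom called 0 and DESeq2 4, all lower, against 132 of the 19170 genes it tested. The part of B cells in the Cr2 values was not tested. Itgb2, the shared chain of complement receptors 3 and 4, had 4.53 to 6.33 CPM in Plg WT and 5.24 to 7.73 CPM in Plg KO (0.38 ± 0.22), and Itgax had a log2 difference of 0.96 ± 0.51, or 0.28 without Plg KO 1.

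Of 18 regulators 12 were tested and 0 were called by edgeR. Serping1, the C1 inhibitor, had the highest level per kilobase of the pathway at 53.1 ± 8.72 RPKM. It had 141.2, 137.8 and 141.7 CPM in Plg WT and 100.9, 97.2 and 122.6 CPM in Plg KO. The groups did not overlap, and the log2 difference was -0.39 ± 0.11 (adjusted p = 0.276 in edgeR's test). Clu, or clusterin, which blocks pore assembly, had 66.7 to 82.6 CPM in Plg WT and 62.9 to 66.5 CPM in Plg KO, a log2 difference of -0.20 ± 0.10. Cd59b, a membrane inhibitor of the pore, had -0.57 ± 0.43, or -0.24 without Plg KO 1 and -1.10 without Plg KO 3. Cd55b, the close copy of Cd55, had no count in any library.

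**Figure D5:**
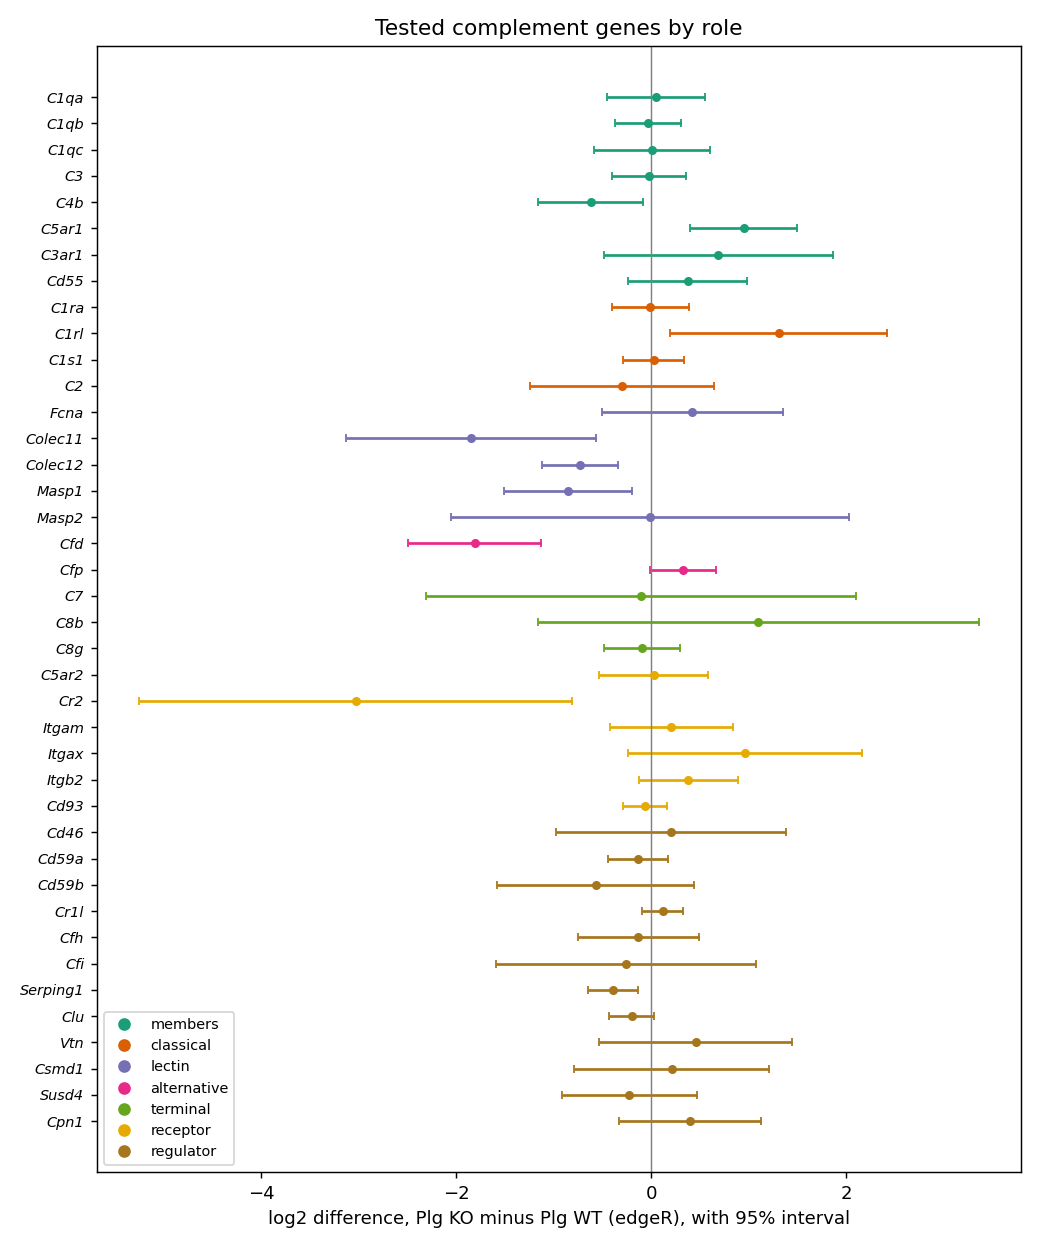
Log2 difference between Plg KO and Plg WT (horizontal axis) with its 95% interval for the 40 tested complement genes, coloured by role. The C1q genes and C3 lie near 0, the interval is wholly above 0 for C5ar1 and C1rl and wholly below it for C4b, Colec11, Colec12, Masp1, Cfd, Cr2 and Serping1, and none passed edgeR's test after adjustment over all genes.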

How the data were processed

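The deposited raw counts per gene (48709 genes) were used. The 22 entries that name no gene, at most 3.55e-05% of a library, were left out. A second table deposited by the authors, named as TMM-scaled CPM of filtered genes, gave gene symbols and an alternative. Divided by what 1 read was worth in each library, 100% of its values were whole (tolerance 0.01) and equal to the raw counts. With the same reads as input, edgeR on them also called 34 genes higher and 8 lower, which is no independent check. The submitters' processing notes name STAR 2.5.2a, DESeq2, edgeR, limma, GRCm38.p3 and mm10, with no role. No source used here gives the counting tool or annotation. Per the labels' protocols, Nextera XT libraries, which do not mark strand, so that sense and antisense reads cannot be told apart, were read as 37-base pairs.

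Groups were compared with edgeR 4.0.16 in R 4.3.3 (quasi-likelihood F test, TMM, filterByExpr, genotype only, Benjamini-Hochberg over 17757 genes). SE is the log2 difference divided by the root of F. Intervals use the t distribution of the fit. Lengths, positions and transcripts came from GENCODE release M21 on GRCm38, promoters from RefSeq. Members and lists were chosen with earlier results of these data known. Named were the 9 members, the 3 other genes with the smallest p in each role, C4a, Cd55b and C5ar2. Genes named from marker lists and Itgax beside C3ar1 were chosen after their values were seen. Hc, Mbl1 and Mbl2 were named for their counts.

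Alternatives were DESeq2 1.42.0, limma-voom and limma-trend (limma 3.58.1, log2 of CPM plus 0.5 or 0.1), RLE and upper-quartile factors, no filter, at least 1 CPM in 3 libraries, the replicate number as a block, a term for sex, summed paralog counts, leaving out each library and, added after seeing the data, the recovered reads, the macrophage sum without Cd14 and marker calls by each tool. The fits were tested on simulated data with known changes. Of genes with a 2-fold change, edgeR called 28 of 97, DESeq2 56 of 100 and limma-voom 27 of 97. With a 4-fold change they called 78 of 96, 86 of 100 and 75 of 96. Of unchanged genes they called 5 of 17207, 37 of 17557 and 5 of 17207. A gene that did not pass may therefore still differ by about 2-fold. Intervals on counts cover counting error only.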

Additional observations from a re-analysis of the deposited data

How the results depend on the processing

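Under the 18 alternatives none of the 8 tested complement genes passed the threshold. The recovered reads, counted among them, repeat the main input. Over all genes, 34 were called higher and 8 lower by edgeR, against 260 and 132 by DESeq2, 122 and 40 with no filter, 54 higher with a term for sex and 13 lower by limma-trend with 0.5 added to CPM. Leaving out 1 library gave 1 to 184 higher and 1 to 35 lower, both highest without Plg WT 1. Of the 32 other complement genes edgeR called 0 lower, DESeq2 3 (Cfd, Colec12 and Cr2) and edgeR with no filter 1 (Cfd). Leaving out 1 library gave 0 to 1, the 1 being Cfd without Plg WT 1.

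C4b ranged from -0.77 to -0.43, C5ar1 from 0.76 to 1.05, C3ar1 from 0.17 to 1.11 and Cd55 from 0.22 to 0.62 on the log2 scale, each with 1 sign. The near-zero differences changed sign. C1qc was -0.0025 with limma-voom, -0.013 with upper-quartile factors, -0.039 with the sex term, and -0.043 and -0.049 with limma-trend at 0.5 and 0.1. C5ar2 was -0.0017 with upper-quartile factors. Leaving out 1 library gave -0.20 to 0.18 for C1qa, -0.20 to 0.060 for C1qb, -0.31 to 0.19 for C1qc, -0.16 to 0.12 for C3, -0.68 to 0.033 for C2, -0.092 to 0.11 for C1s1, -0.68 to 0.72 for C7 and -0.18 to 0.25 for C5ar2. The cause was not tested.

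By raw counts, with no length correction, the C1q shares in Plg WT and Plg KO were 22.5% and 23.4% for C1qa, 64.7% and 63.9% for C1qb and 12.8% and 12.7% for C1qc.

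The correlations showed no pairing by replicate number: those of same-numbered libraries ran from -0.26 to -0.01, and 0 of 3 Plg WT libraries correlated best with their own number. They cannot settle whether libraries were paired, as they rest on deviations from group means of 3 libraries. Sex also differed between the same-numbered libraries of numbers 1 and 3. With the number as a block, 2 genes were called higher and 0 lower, and C1qc was -0.041. Cfb, C4a, C7 and C8b had 23 counts or fewer in every library, so counting error limits their values.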
